A study of Mus musculus with 4 samples.

Results

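The genes described here are the components of T cell receptor signalling, 41 genes that cover the CD3 chains, the coreceptors, the kinases and adaptors next to the receptor, the enzymes and transcription factors further downstream, and the regulators that restrain the signal. They were chosen by symbol, as all probe sets of the mouse array that its annotation assigns to 1 of these symbols alone. Of the 41 genes, 40 were matched, to 96 probe sets, and the remaining 1 is not analysed here. A filter on low signals kept 88 of the 96 probe sets and at least 1 for each of the 40 genes, out of 22518 kept probe sets and 10226 kept genes in all. The 40 genes were divided by their known role into 25 that promote the signal, 13 that restrain it, and Ptprc and Themis, for which both roles are known.

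The T cell receptor has no enzyme activity of its own. When it binds antigen, Src-family kinases phosphorylate the tails of the CD3 chains, the kinase Zap70 docks there and phosphorylates the adaptors Lat and Lcp2, and these assemble phospholipase C, Vav1 and Ras activators into a platform that leads to calcium, NFAT, NF-kappaB and MAP kinase signalling. Phosphatases, ubiquitin ligases, diacylglycerol kinases and inhibitory receptors limit the strength and the duration of the signal. Most of this is done by modification and movement of proteins that the cell already holds, so transcript levels describe the stock of components and not the activity of the pathway.

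RNA was measured in naive helper T cells, freshly isolated and sorted as CD4+ CD62L+ CD44-, from mice 10 to 11 weeks old. The knockout group carried the floxed furin gene (fur flox/flox) together with CD4-cre, a Cre recombinase under a CD4 promoter and so active in the T cell lineage, and lacks the protease furin in T cells by its label. The wild-type group were littermates with fur flox/flox and no Cre, so both groups shared the floxed allele and the controls carried no Cre. There were 2 Affymetrix mouse whole-genome arrays per group, numbered 1 and 2. No label says that the 2 came from separate animals, so p-values reflect spread between samples that may be technical. Values are MAS5 signals, given as deposited or as log2(signal + 15.3), and every difference is knockout minus wild type on the log2 scale.

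Array number separated the samples more than genotype. The bacterial hybridisation controls were 6.25-fold and 6.09-fold brighter on array 2 than on array 1 in the wild-type and knockout groups, and the 3' to 5' ratio of the Gapdh control was 4.09 and 3.35 on the arrays numbered 1 against 0.905 and 0.934 on those numbered 2. Each difference is therefore also given within the arrays numbered 1 (pair 1) and within those numbered 2 (pair 2), in this order. The Furin probe set, which may lie outside the deleted part and so checks neither deletion nor labels, differed by 0.11 (SE 0.34, pairs -0.15 and 0.36). All 7 measured genes of a list of 12 T cell markers were kept, among them Cd3d, Cd3e, Cd3g and Cd4, whose lowest signal on any array was 2974. Of these 7 genes 0 were higher and 3 lower in the knockout in both pairs (Ccr7, Il7r and Lef1, none of them a member), with a summed signal of 60123 and 121440.0 on the wild-type and 55647 and 116310.0 on the knockout arrays. Of the B cell markers, 9 of 12 measured genes were higher and 0 lower in the knockout in both pairs, with a summed signal of 12735 and 19587 on the wild-type and 11620.0 and 31597 on the knockout arrays, of which Ighm alone had 11656 and 14965 against 10033 and 15221. Of the myeloid markers, 14 of 17 were higher and 0 lower, with a sum of 1907 and 4799 against 2995 and 16971. Of the CD8 T and NK cell markers, 5 of 10 were higher and 3 lower in both pairs, with sums of 6496 and 7909 against 5491 and 5395. No marker of these 4 lists lay under a signal of 15.3 on all arrays, but some did on part of them, such as S100a9 at 1.7 on wild-type array 1. The counts of measured genes include some that the filter on low signals left out. Of the kept genes, 8 of 10 B cell, 13 of 14 myeloid and 4 of 8 CD8 T and NK cell markers were higher in both pairs, against 27.6% of all kept genes. In the same order 0, 0 and 2 were lower, against 27.2%. What part these markers play in the values below was not tested, and in such bulk samples fewer cells of a type and less RNA per cell cannot be told apart.

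The receptor signalling transcripts lay close together in the 2 genotypes, and none passed a test. With each gene represented by its kept probe set of highest mean signal, the 40 differences ran from -0.38 for Themis to 0.31 for Was. All 40 lay within 1.5-fold, as did 93.95% of all kept genes and 97.8% of those with a mean signal above the 75th percentile. Over all 88 member probe sets the differences ran from -0.62 for one of Malt1 to 0.87 for one of Zap70. Of these 84 lay within 1.5-fold, against 92.0% of all kept probe sets. In each pair separately 38 of 40 genes lay within 1.5-fold, against 81.5% of all kept genes and 91.7% of the 6565 genes whose mean signal was above the 75th percentile, where all 40 members lie. The exceptions were Grap2, at 0.35 and -0.63 in the pairs, and Ubash3a, at 0.59 and -0.11. The median difference was -0.047 (-0.079 and -0.055 in the pairs) over the 40 genes and -0.0023 over all kept genes. The median size of a difference, without its sign, was 0.086 over the 40 genes. It was 0.15 over all kept genes and 0.13 over those above the 75th percentile of signal.

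**Figure D1:**
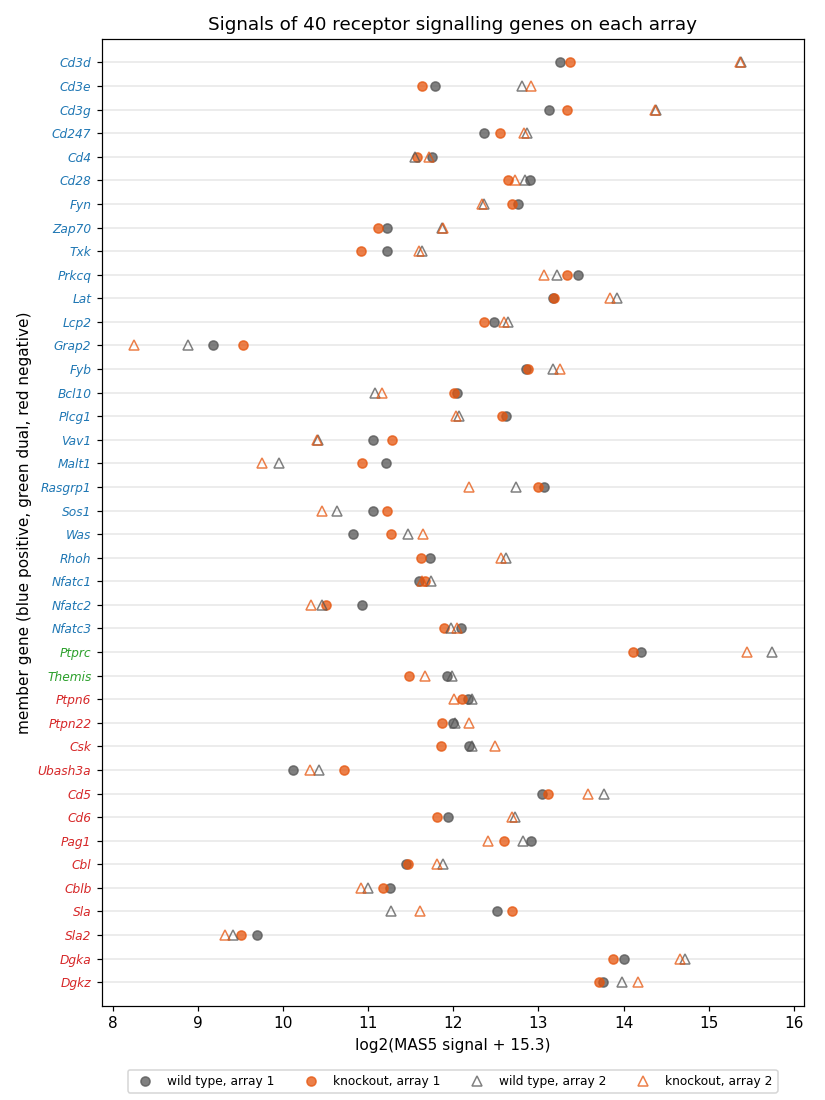
Signals of the 40 measured genes on the 4 arrays, as log2(MAS5 signal + 15.3), with 1 probe set per gene, circles for arrays numbered 1, triangles for arrays numbered 2, grey for wild type and orange for knockout. Arrays of the same number lie close together in most rows, and Cd3d, Ptprc, Sla and Malt1 show a wide gap between the numbers. Levels of different probe sets are not comparable with each other.

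No member passed a test of genotype. In limma without a block, 0 of 88 member probe sets reached an adjusted p (Benjamini-Hochberg) under 0.05, where 0% of all kept probe sets did. An unadjusted p under 0.05 was found for 0 of 88, where 145 of all 22518 kept probe sets had one. With array number as a block limma again called 0 of 88, where 0.00444% of all probe sets (1 probe set, of Jun) were called, the smallest adjusted p was 0.562, and 5 of the 88 had an unadjusted p under 0.05, where 8.12% of all had. With a trended prior added to the block, limma called 0 of 88 where 1.14% of all were called, and the smallest adjusted p was 0.0594. These counts do not show that the genotypes were alike, so the intervals are given too. With array number as a block only 1 residual degree of freedom is left, and the spread is borrowed from all probe sets. The 95% intervals of all 40 genes then lay inside a 2-fold change in either direction. Their lowest bound was -0.864 and their highest 0.857. Of all kept genes 87.4% had intervals inside 2-fold, and of those above the 75th percentile of signal 95.2%. Among the 88 member probe sets 79 did, against 83.28% of all kept probe sets. Without the block the gap between array numbers enters the SE, and 10 of 40 intervals lay inside 2-fold. The same held for 16.5% of all kept genes and 20.6% of those above the 75th percentile of signal.

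More members were lower than higher in the knockout arrays, by small amounts. Within both pairs 18 of 40 genes were lower, against 27.2% of all kept genes, and 3 were higher, namely Fyb, Sla and Was, against 27.6%. Among genes above the 75th percentile of signal these shares were 28.1% and 27.3%. The other 19 members had opposite signs in the pairs. The split moved with the scaling. It was 19 lower and 5 higher after quantile normalization, against 26.4% and 28.6% of all kept genes. After centring each array on its median it was 15 lower and 6 higher, against 26.1% and 26.6%. With the mean of a gene's kept probe sets it was 14 lower and 9 higher, and no share of all kept genes is given for this setting. Beyond 0.32 on the log2 scale in both pairs there were 0 lower and 0 higher members, where 3.45% and 4.62% of all kept genes were found. In 4 genes, Cd28, Themis, Pag1 and Ptpn6, both knockout arrays lay below both wild-type arrays, where 7.93% of all kept genes did, and in 0 members they lay above, against 8.56%. These counts hold for the brightest probe set of each gene. Over all 88 member probe sets, 18 were higher and 32 lower in both pairs, against 25.3% and 30.2% of all kept probe sets. Beyond 0.32 in both pairs 3 were higher, of Nfatc1, Pag1 and Zap70, and 3 lower, of Cbl, Malt1 and Ubash3a, against 4.37% and 5.77%. Both knockout arrays lay above both wild-type arrays for 3 and below for 7 of the 88, against 7.58% and 9.48%.

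**Figure D2:**
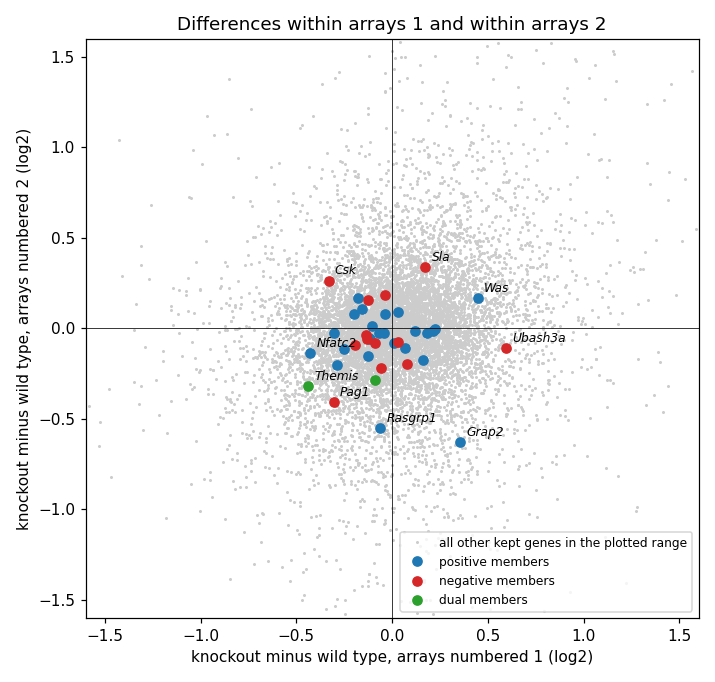
Knockout minus wild type within arrays numbered 1 (horizontal axis) and within arrays numbered 2 (vertical axis), both log2, for the 40 measured genes in colour by role and all other kept genes in the plotted range in grey. The members sit near the centre, with Themis and Pag1 farthest to the lower left and Ubash3a and Grap2 away from the diagonal.

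The CD3 chains carry the tyrosine motifs on which the signal starts. None of the 4 had the same direction in both pairs. Cd3d, the delta chain, had signals of 9725 (array 1) and 42640.1 (array 2) in wild type and 10550.5 and 42143 in knockout. Arrays of the same number were nearly level and the groups overlapped, with a difference of 0.050 (pairs 0.12 and -0.017), an SE of 0.19 with the block and a blocked interval of -0.43 to 0.53. The signal was 4.18-fold higher on the arrays numbered 2. Cd3g, the gamma chain, lay at 8906 and 21339.5 against 10333 and 21166, in the same order of arrays, and differed by 0.10 (pairs 0.21 and -0.012). Cd3e, the epsilon chain, lay at 3525 and 7143 against 3161 and 7707 and differed by -0.024 (pairs -0.16 and 0.11). Both showed the same gap between array numbers, 2.21-fold and 2.22-fold, and no separation by genotype. Cd247, the zeta chain, is measured by 3 kept probe sets, of which the brightest differed by 0.077 (pairs 0.18 and -0.028). The dimmer ones went in opposite directions, at 0.38 (pairs 0.84 and -0.082) and -0.36 (pairs -0.85 and 0.13).

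Cd4, the coreceptor that binds MHC class II and was used for the sort, had signals of 3432 (array 1) and 2974 (array 2) in wild type and 3032 and 3348 in knockout. The groups overlapped, with a difference of -0.004 (pairs -0.18 and 0.17, blocked interval -0.51 to 0.51). Cd28, the receptor for the costimulatory ligands CD80 and CD86, lay at 7609.5 and 7300.2 against 6396 and 6742. Both knockout arrays were below both wild-type arrays, by -0.18 on average (SE 0.32, 0.19 with the block, pairs -0.25 and -0.11). A further Cd28 probe set had the same direction, at -0.33 and -0.14 in the pairs. With 1 array left out the Cd28 difference stayed between -0.22 and -0.14. As the groups did not overlap, its sign could not turn in this way.

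Of the kinases, 3 of 4 were lower in both pairs and 0 were higher. Prkcq, the protein kinase C that links the receptor and CD28 to NF-kappaB, lay at 11286 and 9493 against 10355 and 8529 and differed by -0.14 (SE 0.34, 0.19 with the block, pairs -0.12 and -0.15). Wild-type array 2 was below knockout array 1, so the groups overlapped. Zap70, which binds the phosphorylated CD3 tails, lay at 2376 and 3724 against 2211 and 3752 and differed by -0.046 (pairs -0.10 and 0.011). Fyn, a Src-family kinase, differed by -0.047 (pairs -0.070 and -0.024), and Txk, a Tec-family kinase, by -0.16 (pairs -0.30 and -0.025), most of it on the arrays numbered 1.

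The adaptors differed little. Lat, the membrane scaffold of the signalling platform, lay at 9213 and 15466 against 9264 and 14618 and differed by -0.037 (pairs 0.008 and -0.081, blocked interval -0.51 to 0.44). Lcp2, also known as SLP-76, which joins Lat to Vav1 and phospholipase C, differed by -0.085 (pairs -0.12 and -0.051), and Fyb, which links the receptor to integrin activation, by 0.061 (pairs 0.031 and 0.091). Grap2, also known as Gads, which bridges Lat and Lcp2, had the widest split between pairs, with signals of 564 and 455 against 725 and 289. It was higher in the knockout on the arrays numbered 1 and lower on those numbered 2, with a mean difference of -0.14. A further Grap2 probe set was at 0.067 and 0.19 in the pairs. Bcl10, the adaptor that with Malt1 and a scaffold protein activates NF-kappaB, differed by 0.020 (pairs -0.039 and 0.079).

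Among 7 enzymes and effectors, 4 were lower and 1 was higher in both pairs. Rasgrp1, the diacylglycerol-dependent activator of Ras in T cells, lay at 8538 and 6809 against 8176 and 4644. Knockout array 2 was the lowest of the 4, and the difference of -0.31 (SE 0.43, 0.21 with the block) came to -0.062 and -0.55 in the pairs. Without knockout replicate 2 it was 0.10. Its 4 kept probe sets ran from -0.33 to 0.20. Malt1, the protease and scaffold partner of Bcl10, lay at 2358 and 976 against 1925 and 845 and differed by -0.25 (pairs -0.29 and -0.20). All 3 kept probe sets of Malt1 were lower in both pairs, by -0.036 and -0.032 for the second brightest and -0.50 and -0.74 for the dimmest. Was, the Wiskott-Aldrich syndrome protein that drives actin branching, was the member with the highest difference, 0.31 (SE 0.40, 0.20 with the block), from signals of 1797 and 2828 against 2456 and 3173. The knockout array exceeded the wild-type array of the same number in both pairs, by 0.45 and 0.17, but knockout array 1 lay below wild-type array 2. Without wild-type replicate 1 the Was difference was -0.019. Plcg1, the phospholipase C that makes diacylglycerol and inositol trisphosphate, differed by -0.032 (pairs -0.041 and -0.023), Vav1, an exchange factor of the signalling platform, by 0.11 (pairs 0.22 and -0.006), Rhoh, a GTPase without enzyme activity that recruits Zap70, by -0.088 (pairs -0.11 and -0.060), and Sos1, an activator of Ras, by -0.007 (pairs 0.16 and -0.18).

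The NFAT factors move to the nucleus when calcium activates calcineurin. Nfatc3 lay at 4356 and 3988 against 3786 and 4215 and differed by -0.061 (pairs -0.20 and 0.080), and the groups overlapped. Nfatc1 differed by -0.022 (pairs 0.065 and -0.11). Nfatc2 lay at 1933 and 1395 against 1433 and 1266, with the highest signal on wild-type array 1, and differed by -0.28 (SE 0.36, 0.20 with the block, pairs -0.43 and -0.14). It was lower in both pairs, though knockout array 1 was above wild-type array 2.

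Both genes of dual role were lower in both pairs. Themis, an adaptor needed for thymocyte selection that sets the sensitivity of the receptor together with the phosphatase Ptpn6, had the lowest difference of all members. Its brightest probe set had signals of 3860.5 (array 1) and 4038 (array 2) in wild type and 2848 and 3233 in knockout, so that both knockout arrays lay below both wild-type arrays. The difference was -0.38 (SE 0.32, 0.19 with the block, pairs -0.44 and -0.32), with a blocked 95% interval of -0.85 to 0.10 and limma adjusted p = 0.656 with the block. With 1 array left out it stayed between -0.47 and -0.29, where a turn of sign was not possible because the groups did not overlap. The further Themis probe sets did not share a direction, at 0.007 and -0.62, 0.10 and 0.058 and -0.052 and -0.16 in the pairs. Ptprc, the phosphatase CD45 that removes both activating and inhibitory phosphates from Src-family kinases, lay at 18827 and 54716 against 17676 and 44812 and differed by -0.19 (pairs -0.091 and -0.29). A second Ptprc probe set gave -0.031 and -0.30, close to the first within pairs.

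Of the 13 genes that restrain the signal, 6 were lower in both pairs, 1 was higher and 6 had opposite signs. Pag1, a membrane adaptor that brings the inhibitory kinase Csk to Src-family kinases, lay at 7668 and 7179.9 against 6199 and 5411, with both knockout arrays below both wild-type arrays. It differed by -0.36 (SE 0.33, 0.19 with the block, pairs -0.31 and -0.41, blocked interval -0.83 to 0.12). With 1 array left out it stayed between -0.45 and -0.26, and without overlap of the groups its sign could not turn. Its probe sets contradict each other. A dimmer one, with signals of 323 and 144 against 458 and 246, was higher by 0.49 and 0.71 in the pairs, and the mean of the 4 kept probe sets was 0.29. Csk itself lay at 4635 and 4756 against 3679 and 5714, lower in pair 1 and higher in pair 2 (-0.33 and 0.26), with a difference of -0.034.

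The phosphatases had no shared direction. Ptpn6, or SHP-1, lay at 4584 and 4771 against 4395 and 4092, below in both knockout arrays by -0.14 on average (pairs -0.061 and -0.22). A second Ptpn6 probe set, with signals of 2212 and 2158 against 2422 and 2157, did not share this direction, at 0.13 and -0.0001 in the pairs and a mean of 0.065. Ptpn22, which acts with Csk, differed by 0.017 (pairs -0.12 and 0.16). Ubash3a, a family member of the Sts phosphatases that dampen Zap70 signalling, lay at 1099 and 1361 against 1666 and 1263, where knockout array 1 stood above the other 3. Its difference of 0.24 (SE 0.36, pairs 0.59 and -0.11) was opposed by a second probe set of nearly the same brightness, with signals of 1126 and 1144 against 768 and 853 and pair differences of -0.54 and -0.42. The mean of both gave -0.12.

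Cd5 and Cd6 are scavenger-family receptors that tune the receptor signal. Cd5, whose level on T cells is known to follow the strength of self-recognition, lay at 8407 and 13991 against 8872 and 12223. The groups overlapped, with a difference of -0.059 (pairs 0.077 and -0.19, blocked interval -0.55 to 0.44). Cd6 differed by -0.087 (pairs -0.14 and -0.039). The ubiquitin ligases Cbl and Cblb, which target receptor complexes and costimulatory signalling, differed by -0.024 (pairs 0.028 and -0.075) and -0.085 (pairs -0.088 and -0.082). A second Cbl probe set, with signals of 3752 and 923 against 2963 and 709, was lower in both pairs, by -0.34 and -0.37 (SE 0.98, 0.19 with the block); its difference between the arrays numbered 2 and 1 was -2.02. Sla, a Src-like adaptor that directs the receptor chains to degradation, was the restraining gene that was higher in both pairs, with signals of 5818 and 2443 against 6564 and 3097. Its difference of 0.26 (SE 0.62, 0.19 with the block, pairs 0.17 and 0.34) was smaller than the gap between array numbers, and its 4 kept probe sets ran from -0.14 to 0.26. Sla2, its relative, differed by -0.14 (pairs -0.19 and -0.092). Dgka and Dgkz convert diacylglycerol to phosphatidic acid and so limit Ras activation. Dgka lay at 16398 and 27103 against 14978 and 26023 and differed by -0.095 (pairs -0.13 and -0.059), and Dgkz differed by 0.074 (pairs -0.036 and 0.19).

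Genes that promote and genes that restrain the signal had medians close to each other. The median difference was -0.037 over the 25 promoting genes (-0.062 and -0.025 in the pairs) and -0.059 over the 13 restraining genes (-0.088 and -0.075). The first median minus the second was 0.022, and 0.025 and 0.050 in the pairs. Within both pairs 10 of 25 promoting genes were lower and 2 higher, and 6 of 13 restraining genes were lower and 1 higher. With 1 array left out the difference of medians ran from -0.14, without wild-type replicate 2, to 0.075, without knockout replicate 2. Its sign also turned to -0.040 when wild-type array 1 was left out and to -0.13 when knockout array 1 was. Whenever 1 array is dropped, genotype and number are no longer balanced, and this holds for all such values above.

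Several probe sets of a gene often disagreed. Of 28 genes with more than 1 kept probe set, 16 had probe sets of both directions in the mean difference. The widest were in Zap70, Nfatc1 and Pag1. The dimmest kept probe set of Zap70 had signals of 409 and 356 against 547 and 916, higher in both knockout arrays by 0.41 and 1.33 in the pairs, while the 2 brighter probe sets of Zap70 lay at -0.10 and 0.011 and 0.060 and -0.070. It was the member probe set with the adjusted p of 0.0594 in the fit with block and trended prior. The dimmest of Nfatc1 lay at 85.9 and 127 against 227 and 181, higher by 1.26 and 0.47, where the other 4 kept probe sets of Nfatc1 ran from -0.11 to 0.27 in the pairs. Which transcript parts these probe sets detect is not given in the sources used here.

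**Figure D3:**
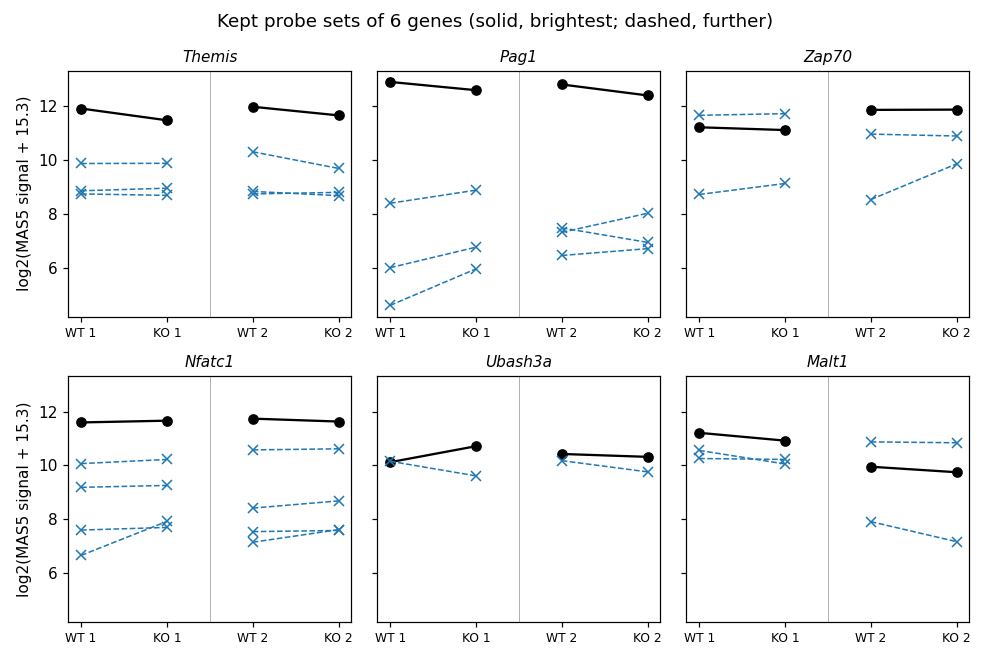
log2(MAS5 signal + 15.3) of all kept probe sets of 6 genes on the wild-type (WT) and knockout (KO) arrays numbered 1 and 2, with the brightest probe set solid and the others dashed. In Themis, Pag1 and Ubash3a the brightest probe set and at least 1 other differ in direction within a pair, and in Zap70 and Nfatc1 the dimmest probe set is higher in knockout while brighter ones differ less, whereas the 3 of Malt1 are all lower in knockout in both pairs.

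Differences between array numbers were larger than those between genotypes. In the limma fit with both terms, 35 of 88 member probe sets differed between the numbers at an adjusted p under 0.05, against 34.1% of all kept probe sets, with 21 of them higher on the arrays numbered 2. The differences ran from -2.77 for a Malt1 probe set to 3.62 for a Cd247 probe set, and 19 of the 88 were more than 2-fold apart. The Cd247 probe set had signals of 187 and 3428 against 348 and 3238, so its pair 1 difference of 0.84 comes from the arrays on which it was 12.3-fold dimmer. In Ptprc and Sla, probe sets of the same gene went more than 2-fold in opposite directions by number. For Ptprc they were at 1.44 and -2.62, and for Sla they ran from -1.53 to 1.01.

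**Figure D4:**
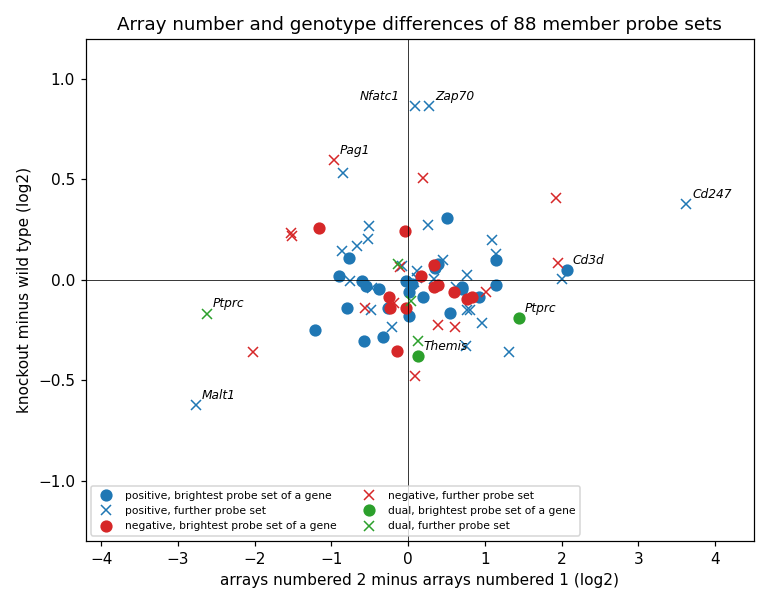
Difference between arrays numbered 2 and 1 (horizontal axis) and between knockout and wild type (vertical axis), both log2, for the 88 kept member probe sets, with filled circles for the brightest probe set of a gene and crosses for the others (positive, genes that promote the signal; negative, genes that restrain it). The horizontal spread, from -2.77 to 3.62, is wider than the vertical one, from -0.62 to 0.87.

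Other genes of the pathway, taken from a list of 47 further promoting and 27 further restraining genes, were measured beside the members. Of the promoting genes 37 were kept, with a median difference of -0.060 (-0.075 and -0.080 in the pairs), and 15 were lower and 6 higher in both pairs. Of the restraining genes 22 were kept, with a median of -0.017 (-0.040 and -0.075), and 8 were lower and 2 higher. Of all kept genes 27.2% were lower and 27.6% higher in both pairs. In limma 0 of their probe sets passed an adjusted p of 0.05 without the block or with it. An unadjusted p under 0.05 was found for 0 of the 96 promoting and 0 of the 42 restraining probe sets without the block, and for 3 and 3 with it. Of all 22518 kept probe sets, 145 had one without the block and 8.12% with it. With a trended prior added to the block, 1 of these pathway probe sets passed the adjusted p, where 257 of all 22518 did (1.14%). It belonged to Pik3r1, the regulatory subunit of phosphatidylinositol 3-kinase, with signals of 6183 and 3060.5 in wild type and 3903 and 1794 in knockout. Each knockout array lay below the wild-type array of its number, by -0.66 and -0.77 in the pairs (limma adjusted p = 0.00881 with the block and trended prior, 0.562 with the block alone). Ppp3ca, a catalytic subunit of calcineurin, was the other promoting gene lower by more than 0.32 in both pairs, with 1413 and 1229.8 in wild type and 1122 and 839 in knockout (-0.33 and -0.54). Of the restraining genes, Lax1, a membrane adaptor, was higher in both pairs (0.52 and 0.59), with 357 and 468 in wild type and 519.7 and 712 in knockout. Nedd4, a ubiquitin ligase, was lower (-0.33 and -0.46), with 104 and 125 in wild type and 79.6 and 86.7 in knockout. For Ppp3ca, Lax1 and Nedd4 the limma adjusted p with the block and trended prior was 0.356, 0.284 and 0.797. Beyond 0.32 in both pairs 3.45% of all kept genes were lower and 4.62% higher. These values are for the brightest probe set of each gene.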

How the data were processed

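Per the submitters' processing notes the authors made the values with MAS5, with no version or setting recorded there. The deposited values are linear intensities, 1 per probe set, and every array has a trimmed mean of 500.003 after 2% is cut from either end. No detection calls were used, so signal over background is unknown, and the number of arrays limits the precision. Probe sets with 1 symbol (34945 of 45037, beside 932 with several and 9160 with none) were named, 34741 of them updated by Entrez identifier through a RefSeq gene table of GRCm38.p6, and 64 controls were left out.

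Values were taken as log2(signal + 15.3), the 25% quantile of all values. This scale understates the change of dim probe sets. Probe sets whose mean signal exceeded the median, 65.4, were kept. The genotypes were compared in limma 3.58.1 under R 4.3.3 (two-sided, Benjamini-Hochberg over 22518 probe sets) without a block, and with array number as one. The labels state no shared animal, batch or day for a number, but the hybridisation controls followed it. The procedure was also run on simulated data into which the gaps between array numbers were built, and no conclusion is drawn from it here. As these gaps enter the SE of the fit without a block, a count of 0 from that fit is no evidence that nothing differed. Gene lists are described by counts and medians, with no set test. The members and lists were chosen with earlier results of these data known.

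Signals on every array are given for the brightest gene of each role, for members past a threshold and for members beyond 0.32 on the log2 scale in both pairs, of which there were 0. Further members with all signals given (Cd3e, Cd3g, Cd4, Zap70, Grap2, Malt1, Was, Nfatc2, Themis, Pag1, Ptpn6, Ubash3a) and single probe sets were chosen after their values were seen.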

Additional observations from a re-analysis of the deposited data

How the results depend on the processing

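With array number as a replicate block each difference stayed as it was. The count of probe sets called over the genome was then 1, or 6 with the filter on the mean log2 value (chosen after seeing the data), against 0 without the block. Adding a trended prior to the block gave 257. Of members 0 were called in each of these fits, and of other pathway genes 1 with the trended prior. The labels do not say that the numbers pair the samples. Across probe sets, which are not replicates, the departures of wild-type array 1 and knockout array 1 from the means of their groups had a correlation of 0.80. The count of members higher in both pairs was 5 with quantile normalization, 6 with median centring and 9 with the mean of kept probe sets, against 3. Of all kept genes 28.6% were higher with quantile normalization and 26.6% with median centring, against 27.6% as deposited. For the mean of kept probe sets no such share is given. Quantile normalization turned 1 gene, Sos1, to 0.0022. With the mean of probe sets the medians of promoting and restraining members were -0.0059 and -0.038, and 10 genes turned sign, Cd4 to 0.14, Zap70 to 0.27, Bcl10 to -0.021, Plcg1 to 0.25, Rhoh to 0.020, Nfatc1 to 0.24, Nfatc3 to 0.072, Ubash3a to -0.12, Pag1 to 0.29 and Cblb to 0.0062. With 1 array left out the counts called were 0 throughout, and the promoting median ran from -0.11 to 0.016, the restraining one from -0.15 to 0.15 and their difference from -0.14 to 0.075. In 33 of 40 genes leaving out 1 array turned the sign of the difference. The difference went for Bcl10 from -0.46 to 0.50, Cbl from -0.24 to 0.20, Cblb from -0.21 to 0.044, Cd247 from -0.17 to 0.33, Cd3d from -1.01 to 1.12, Cd3e from -0.66 to 0.62 and Cd3g from -0.53 to 0.73. It went for Cd4 from -0.11 to 0.099, Cd5 from -0.43 to 0.31, Cd6 from -0.53 to 0.35, Csk from -0.35 to 0.28, Dgka from -0.49 to 0.30, Dgkz from -0.15 to 0.30 and Fyb from -0.13 to 0.25. It went for Fyn from -0.25 to 0.15, Grap2 from -0.78 to 0.50, Lat from -0.41 to 0.34, Lcp2 from -0.20 to 0.029, Malt1 from -0.88 to 0.38, Nfatc1 from -0.092 to 0.049 and Nfatc3 from -0.14 to 0.016. It went for Plcg1 from -0.31 to 0.25, Prkcq from -0.28 to 0.00054, Ptpn22 from -0.14 to 0.17, Ptprc from -0.96 to 0.58, Rasgrp1 from -0.71 to 0.10, Rhoh from -0.56 to 0.39 and Sla from -0.37 to 0.88. It went for Sos1 from -0.39 to 0.38, Txk from -0.51 to 0.18, Vav1 from -0.33 to 0.55, Was from -0.019 to 0.63 and Zap70 from -0.43 to 0.33. The other 7 genes kept their sign. Among them Cd28, Themis, Pag1 and Ptpn6 could not turn, since both knockout arrays lay below both wild-type arrays. Leaving out an array unbalances the array numbers between the groups by construction. The gap between array numbers within a group then enters the difference. The cause of that gap, and of the shifts with processing, was not tested.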
